A study of Homo sapiens with 6 samples.

Results

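The genes described here are 10 transcriptional regulators, GATA factors and erythroid partner regulators. The zinc-finger GATA factors are GATA1, GATA2 and GATA3, of which GATA3 is not known mainly for red cells. The partners are the GATA1 cofactor ZFPM1 (also called FOG1), the complex-forming proteins TAL1, LMO2 and LDB1, and the erythroid factors KLF1, GFI1B and NFE2. The genes were chosen by symbol, and all 10 were found among the 12486 genes of the deposited table. K562 is a human cell line from chronic myeloid leukemia that carries the Bcr-Abl fusion and expresses embryonic and fetal globins. The RNA-seq covered 3 libraries of control K562 cells that stably expressed an shRNA against luciferase (sh-luc) and 3 of K562 cells that stably expressed an shRNA against a long noncoding RNA (sh-up91). The labels call this target lncRNA-up91 and the study calls it lncRNA-IUR1. It was silenced because the study asked how it acts in cells transformed by Abl oncogenes. A single cell line and 1 shRNA were used, and no drug treatment is given for these libraries. In each group 1 library carries no replicate number and the others are called r1 and r2, and values are listed below in that order.

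GATA factors bind the DNA sequence GATA through zinc fingers. GATA2 is used in blood stem and progenitor cells, and GATA1 takes its place at many sites as cells mature into the red cell and megakaryocyte lineages. GATA1 often works in an assembly in which TAL1 binds a neighbouring E-box with an E protein, and LMO2 and LDB1 bridge the DNA-bound proteins and bring distant sites together. GATA3 is best known as a factor of T-cell development, and the study followed it in this experiment.

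Values are FPKM, read levels scaled by the authors to transcript length and library size, so that levels may be set side by side between genes. Differences were tested with limma on log2(FPKM + 1) over 12276 genes, with Benjamini-Hochberg adjustment over all of them, a scale on which changes of low genes come out too small. The FPKM of a library summed to between 579820 and 606240 over the table, which is not a sequencing depth. The depth is unknown, because at best 30.2% of 96 low values of single-exon genes were within 0.1 of a whole fragment, where 20% would be by chance. Any pair of libraries had a Pearson's r, taken across genes, from 0.991 to 0.998. The unnumbered sh-luc library stood apart in genes of the integrated stress response: the mean log2(FPKM + 1) of 19 of these genes was 5.46, 6.46 and 6.30 for sh-luc, whereas the sh-up91 libraries had 6.50, 6.65 and 6.17. The level of the silenced lncRNA itself was not analysed here, so the knockdown is unchecked at its target in these libraries. The study examined that level by RT-PCR in K562 cells that stably expressed either shRNA. The erythroid identity of the cells was visible in the 7 K562 markers, which were all listed and ran from 9.13 FPKM for EPOR, the erythropoietin receptor, to 3565 FPKM for HBG2, a fetal globin. All 7 had a negative log2 fold change between sh-up91 and sh-luc, with a median of -0.090, whereas 42.0% of all genes did. None of the 7 passed the test in limma, and 1 of them, HBE1, was lower without overlap.

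Promoter windows of 300 bases (250 before and 50 after the transcription start, RefSeq, GRCh38.p14) were available for 8 of the 10 genes. The motif GATAA was searched on both strands, where the other strand reads TTATC. For each gene the window nearest to the canonical transcript start was read, which lies 110 bases from that start for TAL1 and 5366 bases for LDB1. GATAA was present in 3 of the 8 windows, those of TAL1, KLF1 and GFI1B, and in 22.7% of 35116 windows of all genes. These 3 windows are shown because they hold the motif, and that of GATA3 as the gene followed by the study. The windows of GATA1, GATA2, ZFPM1 and LDB1 hold no GATAA either. The KLF1 window is chr19:12887152-12887451 on the minus strand, with the match 66 bases before the start. That of GFI1B is chr9:132978444-132978743 on the plus strand, with the match 115 bases before the start. The TAL1 window is chr1:47232286-47232585 on the minus strand, with matches 67 and 35 bases before the start. The GATA3 window is chr10:8054438-8054737 on the plus strand, 1 of 6 windows listed for the gene, and holds no GATAA. Capitals mark GATAA or its complement.
KLF1: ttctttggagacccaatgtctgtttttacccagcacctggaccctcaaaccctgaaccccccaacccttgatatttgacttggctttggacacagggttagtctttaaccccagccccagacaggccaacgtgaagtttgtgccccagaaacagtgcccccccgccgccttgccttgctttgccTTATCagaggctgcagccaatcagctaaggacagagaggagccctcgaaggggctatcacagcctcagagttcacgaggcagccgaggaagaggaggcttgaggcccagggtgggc
GFI1B: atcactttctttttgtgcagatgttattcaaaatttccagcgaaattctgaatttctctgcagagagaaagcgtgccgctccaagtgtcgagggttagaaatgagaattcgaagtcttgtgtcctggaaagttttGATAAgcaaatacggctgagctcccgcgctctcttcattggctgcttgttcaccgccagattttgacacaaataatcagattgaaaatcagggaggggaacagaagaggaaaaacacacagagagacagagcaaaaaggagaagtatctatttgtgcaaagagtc
TAL1: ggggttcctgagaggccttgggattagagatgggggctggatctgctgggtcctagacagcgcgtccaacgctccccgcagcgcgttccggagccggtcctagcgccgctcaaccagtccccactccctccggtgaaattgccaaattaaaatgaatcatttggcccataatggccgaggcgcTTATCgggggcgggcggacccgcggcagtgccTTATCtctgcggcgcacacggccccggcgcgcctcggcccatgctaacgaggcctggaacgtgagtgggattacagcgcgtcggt
GATA3: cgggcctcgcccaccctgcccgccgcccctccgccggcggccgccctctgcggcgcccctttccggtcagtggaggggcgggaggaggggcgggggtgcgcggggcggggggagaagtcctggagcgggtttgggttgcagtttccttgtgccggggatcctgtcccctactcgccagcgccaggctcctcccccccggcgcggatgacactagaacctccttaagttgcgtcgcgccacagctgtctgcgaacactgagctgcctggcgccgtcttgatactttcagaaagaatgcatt
The E-box CANNTG, the class of site bound by TAL1, was in 4 of the 8 windows and in 68.7% of all windows. CACCC, the core of KLF1 sites, was in 5 of the 8 and in 59.9% of all windows. TTCNNNGAA, the core of STAT5 sites, was in 0 of the 8 windows and in 7.66% of all windows. A match is a match of letters and no measurement of binding, and its absence concerns these windows alone.

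Among the GATA factors, GATA1 (gene identifier 2623, chromosome X from 48786590 to 48794311) was the most abundant. It was expressed at 200.42, 190.80 and 199.76 FPKM in sh-luc and at 182.31, 187.85 and 199.98 FPKM in sh-up91, so that the groups overlapped. The log2 fold change was -0.052 (95% interval -0.18 to 0.075, adjusted p = 0.930 from limma). GATA2 (2624, chromosome 3 from 128479422 to 128493201) was at 54.83, 55.97 and 57.65 FPKM in sh-luc and 54.68, 58.28 and 58.12 FPKM in sh-up91. Its log2 fold change was 0.022 (95% interval -0.11 to 0.15, adjusted p = 0.962 from limma), and its coefficient of variation over the 6 libraries, 2.90%, was the smallest of the 10 genes. The lowest and the highest library differed by 1.07-fold for GATA2 and by 1.10-fold for GATA1.

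GATA3 (2625, chromosome 10 from 8045333 to 8075198, with 6 exons and 3083 bases in the canonical GENCODE transcript) was far below both. It was measured at 0.24, 0.35 and 0.21 FPKM in sh-luc and at 0.45, 0.45 and 0.41 FPKM in sh-up91. All 3 sh-up91 libraries were therefore above all 3 sh-luc libraries, and the means were 0.267 ± 0.0737 and 0.437 ± 0.0231 FPKM (SD, n = 3 each). On the log2(FPKM + 1) scale the difference was 0.18 (95% interval 0.017 to 0.35), and GATA3 did not pass the test (limma, unadjusted p = 0.0341, adjusted p = 0.930). With a pseudocount of 0.1 the difference was 0.57 (same test, not passed). The values have 2 decimals, and rounding alone allows an error of 2.38% at the lowest of them.

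GATA3 made up between 0.0815% and 0.142% of the summed FPKM of GATA1, GATA2 and GATA3 in sh-luc, and between 0.159% and 0.190% in sh-up91. The share of GATA1 was between 77.2% and 78.4% in sh-luc and between 76.2% and 77.4% in sh-up91, and the remainder was nearly all GATA2. GATA5 was listed at 0.89, 1.02 and 0.72 FPKM in sh-luc and 0.76, 1.02 and 0.92 FPKM in sh-up91, above GATA3 in every library. For GATA6 the values were 0.32, 0.35 and 0.39 FPKM in sh-luc and 0.28, 0.21 and 0.30 FPKM in sh-up91, in the same low range as GATA3 but with sh-up91 below sh-luc in all libraries (log2 fold change -0.10, adjusted p = 0.930 from limma). GATA4 is not in the table analysed.

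**Figure D1:**
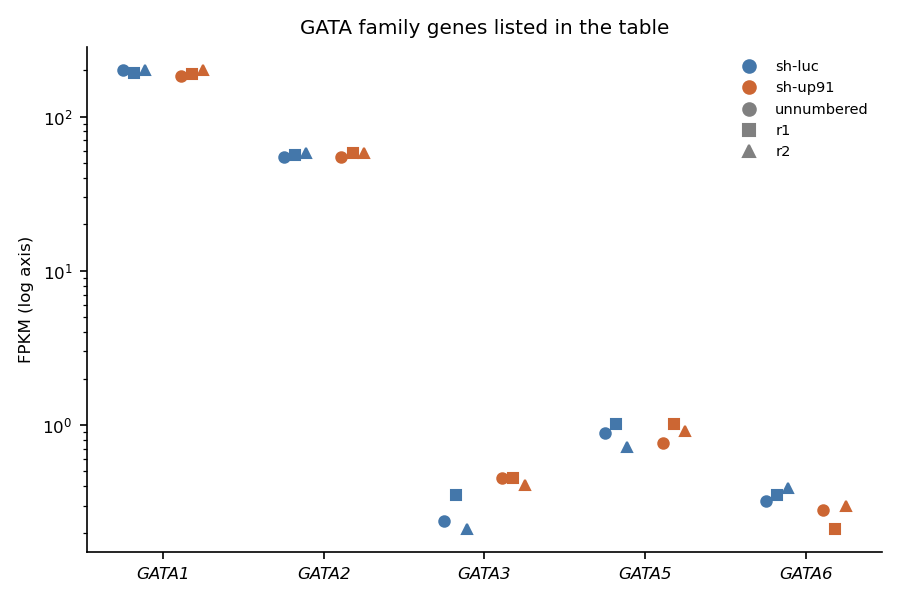
FPKM (log axis) of the 5 GATA family genes in the table, 1 point per library, coloured by group and shaped by library name. GATA1 and GATA2 lie above 54 FPKM in all libraries, and GATA3 and GATA6 lie between 0.21 and 0.45 FPKM.

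GATA3 was compared with GATA1 and GATA2 by the ratio of the genes within a library, which does not depend on how libraries are scaled. The study had reported GATA3 as raised in this same RNA-seq, so these ratios are no independent evidence of a different response. By quantitative PCR the study also reported GATA3 as higher in K562 and mouse NS2 knockdown cells and in blood and marrow cells of knockout mice. It reported GATA3 as lower in K562 cells that overexpressed the lncRNA. Those measurements are not part of these libraries. The log2 ratio of GATA3 to GATA1 was -9.71, -9.09 and -9.89 for sh-luc against -8.66, -8.71 and -8.93 for sh-up91, a mean difference of 0.80 (exact permutation test, two-sided, p = 0.1, the lowest value that 3 libraries against 3 can give). For GATA3 to GATA2 the log2 ratio was -7.84, -7.32 and -8.10 for sh-luc against -6.92, -7.02 and -7.15 for sh-up91, a mean difference of 0.72 (exact permutation test, p = 0.1). In both ratios the groups did not overlap. GATA3 had no overlap by itself, and GATA1 and GATA2 varied little (coefficients of variation 3.96% and 2.90%). Both ratios therefore mostly restate the values of GATA3. They were taken without a pseudocount, so they are not on the scale of the log2 fold changes from limma. The log2 ratio of GATA2 to GATA1, the pair exchanged during red cell maturation, was -1.87, -1.77 and -1.79 for sh-luc against -1.74, -1.69 and -1.78 for sh-up91. These groups overlapped, with a mean difference of 0.075 (exact permutation test, p = 0.2). Adjusted over the 3 ratios the p-values were 0.15, 0.15 and 0.2, and this design could not reach 0.05.

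ZFPM1 (161882, chromosome 16 from 88451769 to 88537031) encodes the protein that binds the amino-terminal finger of GATA1 and recruits corepressors. It was expressed at 10.35, 9.35 and 10.69 FPKM in sh-luc and at 9.07, 8.04 and 10.35 FPKM in sh-up91. The lowest value was in sh-up91 r1 and the groups overlapped (log2 fold change -0.14, 95% interval -0.35 to 0.081, adjusted p = 0.930 from limma).

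The 3 genes of the bridging complex differed in level. LDB1 (8861, chromosome 10 from 102102088 to 102121442), which dimerizes and holds distant sites together, was at 100.87, 117.75 and 121.96 FPKM in sh-luc and 115.44, 119.05 and 119.92 FPKM in sh-up91. The unnumbered sh-luc library was the lowest, and without it the log2 fold change turned from 0.061 (95% interval -0.10 to 0.23, adjusted p = 0.931 from limma) to -0.021. LMO2 (4005, chromosome 11 from 33858576 to 33892076), the LIM-domain protein between TAL1 and LDB1, was at 76.61, 60.85 and 59.98 FPKM in sh-luc and 58.11, 53.21 and 63.68 FPKM in sh-up91. Here the unnumbered sh-luc library was the highest of all, and the groups overlapped. The log2 fold change was -0.17 (95% interval -0.39 to 0.059, adjusted p = 0.930 from limma), the most negative of the 10 genes, and -0.053 without that library. TAL1 (6886, chromosome 1 from 47216290 to 47232335), a basic helix-loop-helix factor, was at 27.84, 30.35 and 30.37 FPKM in sh-luc and 28.73, 28.94 and 29.24 FPKM in sh-up91. The sh-up91 values of TAL1 lay inside the range of sh-luc (log2 fold change -0.025, 95% interval -0.17 to 0.12, adjusted p = 0.961 from limma).

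KLF1 (10661, chromosome 19 from 12884422 to 12887201), the Krüppel-like factor that activates adult globin and many other red cell genes, was at 131.54, 105.69 and 118.46 FPKM in sh-luc and 106.94, 99.15 and 125.90 FPKM in sh-up91. Values from both groups alternated along the range (log2 fold change -0.10, 95% interval -0.32 to 0.12, adjusted p = 0.930 from limma). GFI1B (8328, chromosome 9 from 132945531 to 132993434), a zinc-finger repressor needed for red cells and platelets, was at 38.59, 32.24 and 37.67 FPKM in sh-luc and 31.81, 30.26 and 36.91 FPKM in sh-up91. It overlapped between groups as well (log2 fold change -0.13, 95% interval -0.34 to 0.077, adjusted p = 0.930 from limma). NFE2 (4778, chromosome 12 from 54292111 to 54301015), the large subunit of a dimer with small MAF proteins that acts on globin and platelet genes, was at 164.77, 177.28 and 175.06 FPKM in sh-luc and 172.62, 184.34 and 183.96 FPKM in sh-up91. The sh-up91 r1 and r2 values were above every sh-luc value and the unnumbered one was not (log2 fold change 0.065, 95% interval -0.063 to 0.19, adjusted p = 0.930 from limma).

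**Figure D2:**
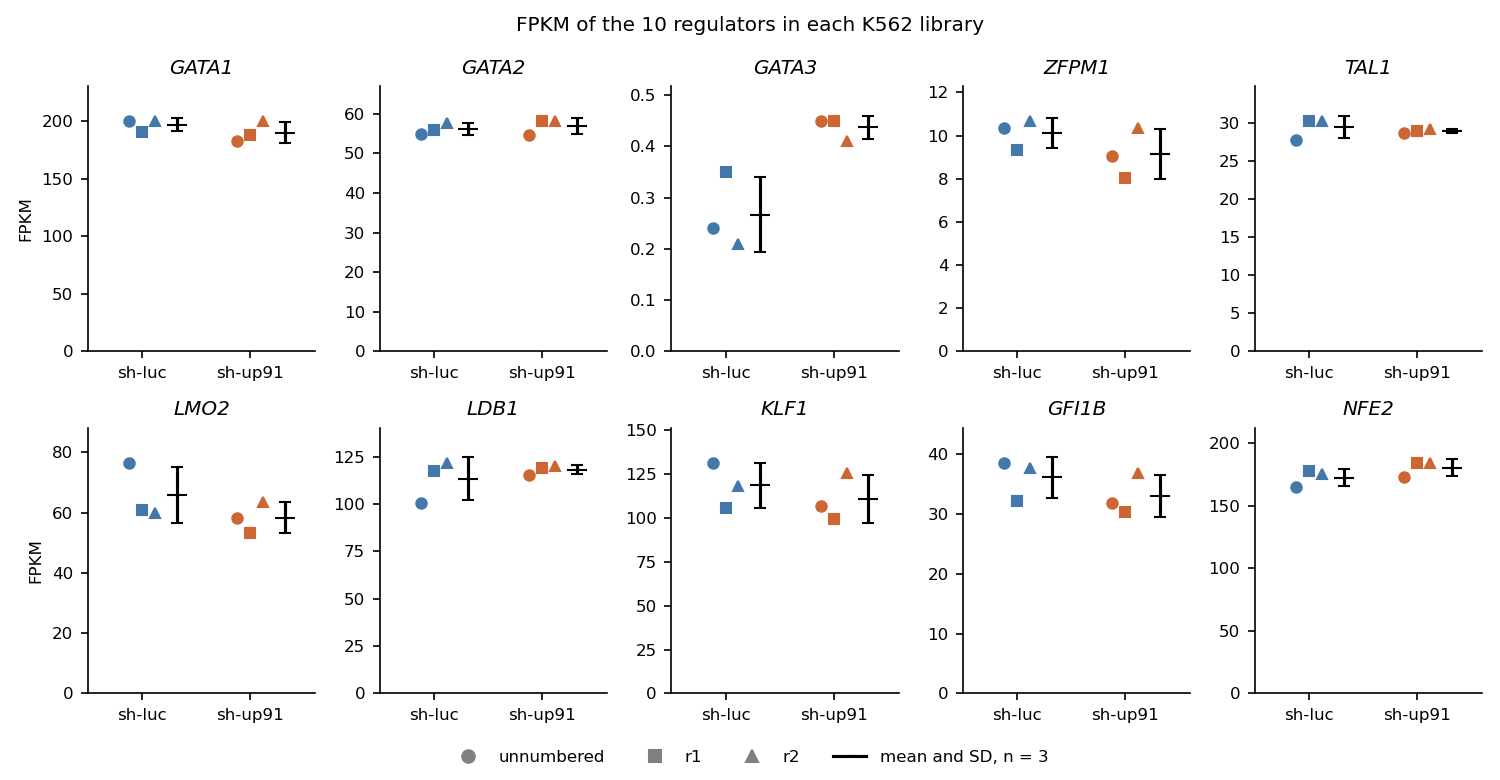
FPKM of each of the 10 genes by group, 1 point per library, with the mean and SD (n = 3) in black and every axis starting at 0. The groups are apart for GATA3 and overlap for the other 9 genes.

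Of the 10 genes, 0 passed the test between sh-up91 and sh-luc at an adjusted p under 0.05 in limma, and so did 0 of all 12276 genes (0%). At an unadjusted p under 0.05 there was 1 of the 10, GATA3, against 325 of all genes (2.65%, of which 1.65% were higher in sh-up91, as GATA3 was, and 0.994% lower). Both moved when 1 library was left out. In these limma fits the unadjusted p of GATA3 ran from 0.0190 to 0.118 and was above 0.05 in 4 of 6 fits. A fit with 1 library fewer also has less power, and the log2 fold change of GATA3 stayed between 0.15 and 0.23. The count of all genes was 854 without sh-luc r1, 712 without sh-up91 r2 and 156 without the unnumbered sh-up91 library. GATA3 was also the 1 gene of the 10 without overlap between groups, as were 868 of all genes (7.07%, with 4.04% higher in sh-up91). The median log2 fold change of the 10 genes was -0.039, with 4 positive and 6 negative, and that of all genes was 0.019, with 42.0% negative. The 10 intervals ran from -0.39 to 0.35 at their outer ends, so that changes of 1 on the log2(FPKM + 1) scale lay outside every one of them. For GATA3, at most 0.45 FPKM, a change of 1 on this scale is far more than a doubling of FPKM. Its interval therefore does not exclude a doubling. Since K562 cells were measured in bulk, fewer cells with a transcript and less transcript per cell cannot be told apart.

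**Figure D3:**
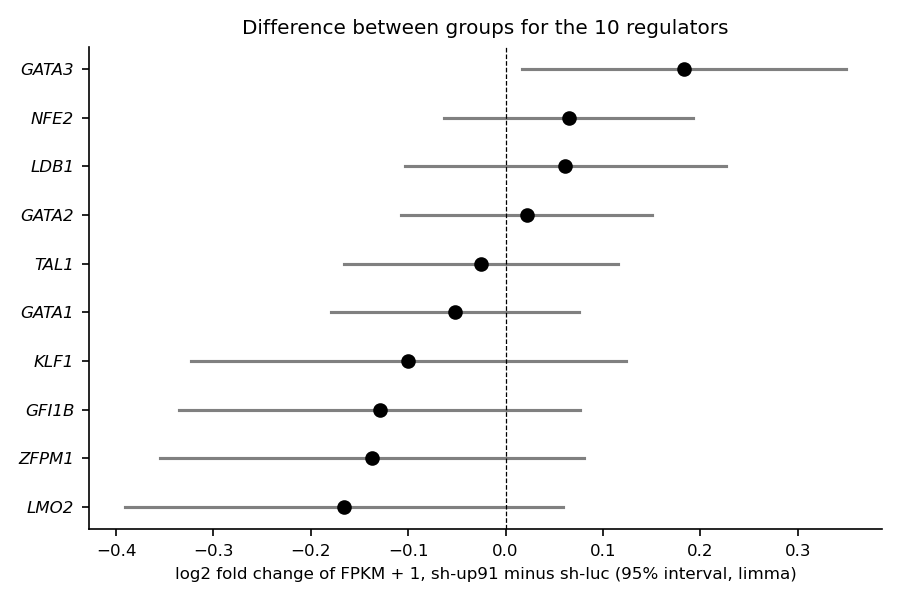
Log2 fold change of FPKM + 1 for the 10 genes (points) with the 95% interval from limma (lines), sorted from LMO2 at -0.17 to GATA3 at 0.18. The interval of GATA3 begins at 0.017, and the other 9 include 0.

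By mean level over the 6 libraries the order was GATA1 (193.5 FPKM), NFE2 (176.3), LDB1 (115.8), KLF1 (114.6), LMO2 (62.1), GATA2 (56.6), GFI1B (34.6), TAL1 (29.2), ZFPM1 (9.64) and GATA3 (0.352). Neighbours whose ranges over the libraries overlapped were GATA1 and NFE2, LDB1 and KLF1, LMO2 and GATA2, and GFI1B and TAL1. GATA1 was nevertheless above NFE2 within each of the 6 libraries, and GFI1B above TAL1, whereas LDB1 was above KLF1 in 4 of the 6 and LMO2 above GATA2 in 5. The widest step was from ZFPM1 to GATA3, 27.4-fold, and the ends of the order differed 550-fold.

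Variation between libraries was uneven. The coefficient of variation over the 6 libraries was 29.9% for GATA3, 12.8% for LMO2, 11.1% for KLF1, 10.5% for ZFPM1 and 10.3% for GFI1B. The coefficient was 6.60% for LDB1, 4.18% for NFE2, 3.96% for GATA1 and 3.36% for TAL1, and the median of all genes was 8.46%. KLF1, GFI1B, ZFPM1 and GATA1 shared the same 3 highest libraries, the unnumbered sh-luc, sh-luc r2 and sh-up91 r2, which come from both groups, an order noticed after the values were seen. That set of 3 was the highest for 913 of all genes (7.44%) and, among the 28 erythroid target genes listed below, for 4. Within these 4 regulators the highest library exceeded the lowest by 1.33-fold for KLF1 and ZFPM1, 1.28-fold for GFI1B and 1.10-fold for GATA1. The authors' soft clustering of genes into 9 clusters, deposited with the values and made on these same libraries, placed the same 4 regulators in 1 cluster that holds 10.5% of the genes. It placed NFE2 and LDB1 together in another, GATA2 and TAL1 in another, and LMO2 and GATA3 each apart.

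The integrated stress genes had the opposite order: their 3 highest libraries were sh-up91 r1, the unnumbered sh-up91 and sh-luc r1, the 3 in which KLF1, GFI1B, ZFPM1 and GATA1 were lowest. This held for 17 of the 19 stress genes and for 1908 of all genes (15.5%). The library with the highest stress mean, sh-up91 r1, had the lowest KLF1, GFI1B, ZFPM1 and LMO2. The library with the lowest stress mean, the unnumbered sh-luc, had the highest KLF1, GFI1B, LMO2 and GATA1 and the lowest LDB1, NFE2 and TAL1. The part of the stress genes in these levels was not tested.

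**Figure D4:**
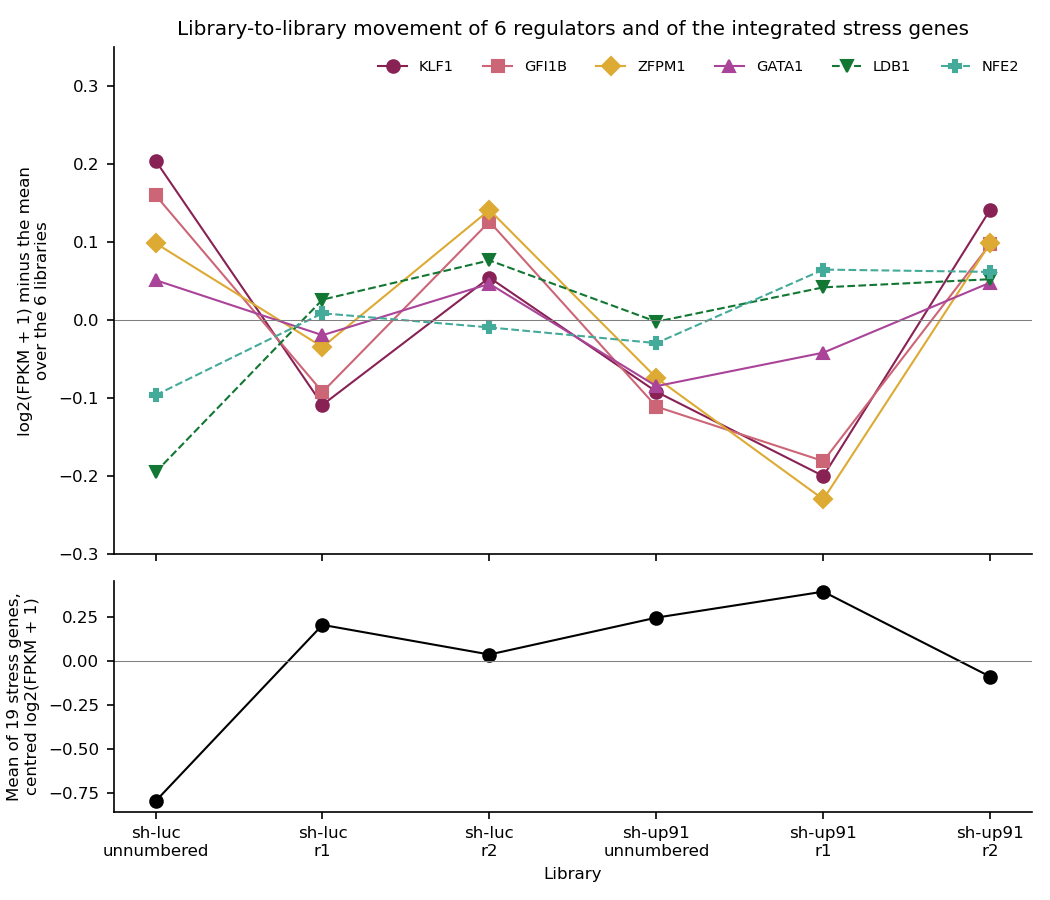
Centred log2(FPKM + 1) of 6 of the genes (upper panel) and the centred mean of 19 integrated stress genes (lower panel) in each library, with lines that only join points of the same gene. KLF1, GFI1B, ZFPM1 and GATA1 are high where the stress mean is at or below 0.037, and LDB1 and NFE2 are lowest in the unnumbered sh-luc library.

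The partners of these regulators were taken from lists of known partners and targets, and 0 genes of any list passed the test (limma, adjusted p under 0.05). Of 20 further partners of the TAL1, LMO2 and LDB1 complex, 15 were tested, 11 with a positive and 4 with a negative log2 fold change, and a median of 0.038. RUNX1, a factor of blood stem cells and megakaryocytes, was at 8.86, 17.73 and 15.18 FPKM in sh-luc and 18.08, 21.59 and 15.61 FPKM in sh-up91, with the unnumbered sh-luc library lowest. ID1, an inhibitor of E proteins, was at 43.16, 33.10 and 38.54 FPKM in sh-luc and 33.65, 25.31 and 37.03 FPKM in sh-up91. TAL2, a close relative of TAL1, was low, between 1.27 and 3.03 FPKM.

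The corepressors that ZFPM1 and GFI1B recruit were steadier. Of 22 listed, 21 were tested, with a median log2 fold change of 0.0090 and a median coefficient of variation of 4.70%. HDAC1, a histone deacetylase of these complexes, was at 83.97, 77.32 and 79.56 FPKM in sh-luc and 74.83, 69.34 and 77.79 FPKM in sh-up91 (log2 fold change -0.12, adjusted p = 0.930 from limma). All 8 partners and relatives of NFE2 were tested, with a median of 0.068. NFE2L1, a relative of NFE2 in the same family, was at 29.09, 40.04 and 41.87 FPKM in sh-luc and 41.41, 45.21 and 38.24 FPKM in sh-up91, again lowest in the unnumbered sh-luc library. Among 14 other GATA, FOG, GFI1 and KLF genes tested the median was 0.091. KLF3, a repressor that is itself a target of KLF1, was at 22.89, 34.16 and 31.50 FPKM in sh-luc and 38.04, 40.04 and 31.07 FPKM in sh-up91 (log2 fold change 0.30, unadjusted p = 0.0563 from limma).

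Red cell genes known as targets of GATA1 or KLF1 were tested in 28 of 30 cases, of which 14 had a positive and 14 a negative log2 fold change. Their median was 0.0092, against 0.019 for all genes. AHSP, the chaperone of alpha globin, was at 5.95, 5.65 and 5.29 FPKM in sh-luc and 6.04, 8.24 and 6.83 FPKM in sh-up91, without overlap (log2 fold change 0.27, adjusted p = 0.930 from limma). HBE1, the embryonic beta-like globin, was at 188.98, 173.99 and 173.34 FPKM in sh-luc and 162.67, 169.42 and 164.53 FPKM in sh-up91, also without overlap but lower (log2 fold change -0.11, adjusted p = 0.930 from limma). In all, 3 of the 28 genes were above and 1 below without overlap, where 4.04% of all genes were above and 3.03% below. GYPB, a glycophorin with a near-identical relative and therefore an uncertain value, ran from 43.83 to 77.47 FPKM with the unnumbered sh-luc library highest.

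**Figure D5:**
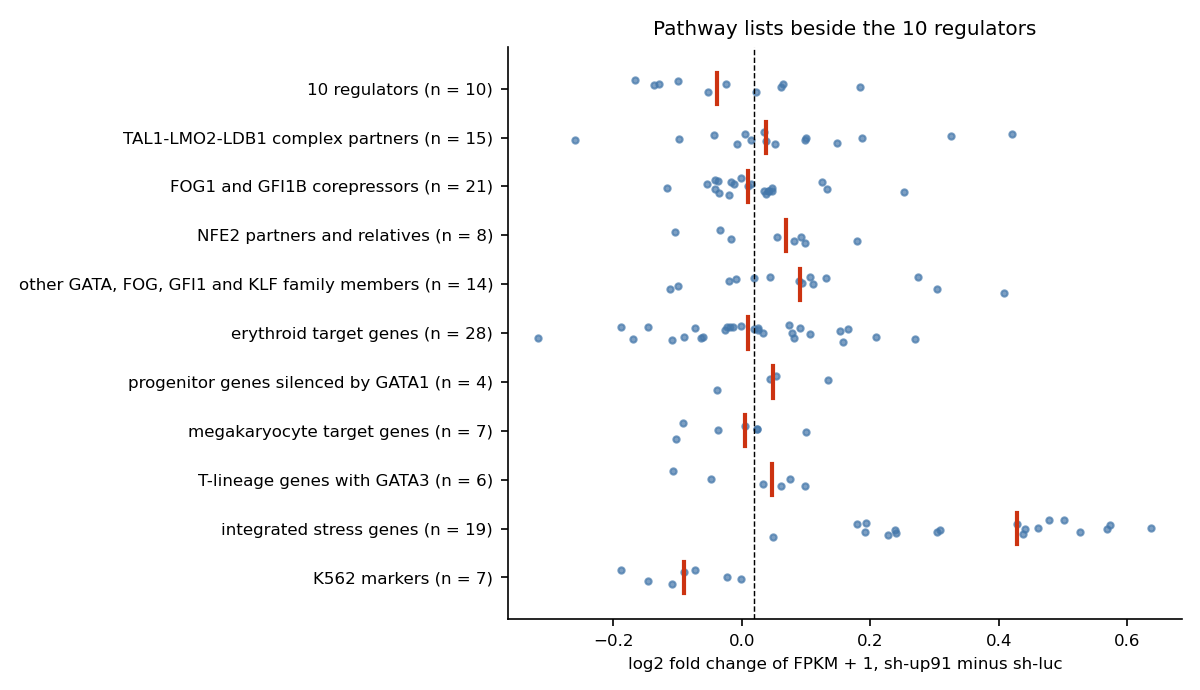
Log2 fold change of FPKM + 1 (sh-up91 minus sh-luc) for each gene of the 10 regulators and of 10 lists (points), with the median of the list in red and the median of all genes tested, 0.019, as a dashed line. The stress list lies to the right with a median of 0.43, and the other lists have medians between -0.090 (K562 markers) and 0.091. The unnumbered sh-luc library is far lowest for the stress genes, with a mean log2(FPKM + 1) of 5.46 against 6.17 to 6.65 in the others.

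T-lineage genes were measured because GATA3 belongs to that lineage. Of 24 listed genes 9 are in the table, and their summed level was between 14.2 and 16.0 FPKM in sh-luc and between 14.0 and 15.1 FPKM in sh-up91. The highest was TCF7, a T-cell transcription factor, at 7.46, 7.90 and 7.45 FPKM in sh-luc and 6.96, 7.16 and 6.83 FPKM in sh-up91, lower in sh-up91 without overlap (log2 fold change -0.11, adjusted p = 0.930 from limma). The subunits of the CD3 complex, which define T cells, differed in level. CD3D was between 3.51 and 4.96 FPKM, whereas CD3E was at most 0.18 FPKM and CD3G at most 0.29 FPKM. CD3E was at 0 in sh-up91 r2, and CD3G was at 0 there and in the unnumbered sh-luc library. The summed levels of the groups overlapped, unlike the levels of GATA3. TCF7 and CD3D made up most of the sum, so it cannot show how the lower T-lineage genes moved. Of the 6 genes tested, 4 had a positive and 2 a negative log2 fold change.

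The genes whose pattern over the 6 libraries was most like that of a GATA factor were found by the mean absolute difference of z-scored log2(FPKM + 1) among genes that averaged 1 FPKM or more. For GATA1 they were POM121C (0.0556), LRFN1 (0.0628) and ZC3H18 (0.0877). For GATA2 they were PGAP6 (0.0531), ZNF142 (0.142) and MEN1 (0.144). For GATA3 they were DPP7 (0.0917), AP4M1 (0.115) and CD70 (0.138), the last at 1.77, 2.10 and 1.70 FPKM in sh-luc and 2.62, 2.42 and 2.42 FPKM in sh-up91. This likeness is a description over 6 libraries and no test was made of it.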

How the data were processed

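According to the methods, the authors trimmed and masked the reads, mapped them to hg38 and computed RPKM with samtools 0.1.19, while the columns deposited by the authors are named FPKM and have 2 decimals. The aligner and annotation are not given in the sources used here. The authors also deposited a score, which equals the z-score of each gene's FPKM over the libraries to within 2.2e-14. A cluster number and a membership fraction from the authors' soft clustering complete the table, and none of these entered a test. The table holds no gene with a standard deviation under 0.05 FPKM over the 6 libraries.

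Entrez identifiers were matched to RefSeq GRCh38.p14, which gave a symbol for 12363 of 12486 genes. On log2(FPKM + 1), limma 3.58.1 (R 4.3.3, eBayes with a trend, group as the only term) was run for 12276 genes, those averaging 0.1 FPKM or more. Values are not counts, so no count test was run. The limma step was also run on simulated data, with independent noise and no shift of a single library. A shift such as that of the unnumbered sh-luc library was therefore not covered, and the outcome is not given here. Ratios of GATA genes were compared by exact permutation tests (scipy 1.17.1). Intervals are 95% intervals. The methods describe the libraries as independent groups of cells. The members and lists were chosen with earlier results of these data known. Genes named from a list are among the 4 with the smallest p-value in it, except GATA5, CD3E, CD3G and EPOR, chosen after their values were seen. For each GATA factor the 3 genes of nearest pattern are named. The fit was repeated with other pseudocounts (0.1), filters (none, or 1 FPKM), scalings (median-ratio, quantile), without the trend, with a replicate block and without each library, and the ratios on FPKM + 0.1. Remaining steps ran in Python 3.11.15 with numpy 2.4.6, pandas 2.3.3 and matplotlib 3.10.9.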

Additional observations from a re-analysis of the deposited data

How the results depend on the processing

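Of 163 values obtained under alternatives (counts of genes called, log2 fold changes of the 10 genes and ratios of GATA genes), 162 had the same direction and call as the reported value. The exception was LDB1, with a log2 fold change of -0.021 without the unnumbered sh-luc library against 0.061 with it. The cause was not tested. Leaving out single libraries gave LDB1 values from -0.021 to 0.12. Under all 13 alternatives limma called 0 genes, and the adjusted p-values of the 10 genes lay between 0.667 and 0.9997. GATA3 ranged from 0.15 (without sh-luc r2) to 0.57 (pseudocount 0.1) on the log2 scale, and a minimum mean of 1 FPKM removes it. Single libraries moved most of the small fold changes by over 1.5 times. Without the unnumbered sh-luc library KLF1 was at -0.023, LMO2 at -0.053, GFI1B at -0.082, TAL1 at -0.065, NFE2 at 0.033 and GATA2 at 0.0050. Without sh-luc r1 KLF1 was at -0.18, GFI1B at -0.21 and TAL1 at -0.0052. Without sh-luc r2 TAL1 was at -0.0048, LDB1 at 0.12 and GATA2 at 0.040. Without the unnumbered sh-up91 library GATA1 was at -0.023 and GATA2 at 0.051. Without sh-up91 r1 KLF1 was at -0.025, ZFPM1 at -0.056, GFI1B at -0.071, LMO2 at -0.10 and GATA2 at 0.0059. Without sh-up91 r2 GATA1 was at -0.089, ZFPM1 at -0.22, KLF1 at -0.20, GFI1B at -0.21 (limma, unadjusted p = 0.0463) and GATA2 at 0.0079. With a replicate block limma called 0 genes, 533 had an unadjusted p under 0.05, and GATA3 was at 0.18. Whether the numbers pair the libraries is not known. The correlation of same-numbered deviations was 0.044, 0.39 and -0.34 for the unnumbered, r1 and r2 libraries. Differently numbered libraries were not compared, so these values cannot decide it.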

Other observations

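Of 5 progenitor genes that GATA1 is known to silence, 4 were in the table and tested. MYB, a progenitor factor, was at 93.39, 108.58 and 98.00 FPKM in sh-luc and 106.33, 99.31 and 105.06 FPKM in sh-up91. SPI1, the myeloid factor PU.1 that opposes GATA1, was at 11.24, 14.66 and 13.40 FPKM in sh-luc and 15.24, 17.45 and 11.16 FPKM in sh-up91, and KIT, the stem cell factor receptor, was between 2.16 and 2.98 FPKM. The groups overlapped for these 3 genes (adjusted p between 0.930 and 0.957 from limma). Of 15 megakaryocyte genes, 7 were in the table and tested, with a median log2 fold change of 0.0056. TUBB1, a platelet tubulin, was at 3.10, 3.41 and 2.91 FPKM in sh-luc and 3.93, 2.94 and 3.48 FPKM in sh-up91, and MYL9, a myosin light chain, was between 8.89 and 11.19 FPKM.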
